A study of Homo sapiens with 14 samples.

Results

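Keratin genes were followed across 7 human prostate cancer cell lines. The members were all genes whose symbol is KRT with a number and at most a letter from A to C, measured by a probe set annotated to that gene alone. They numbered 48 of the 18372 genes tested, with 21 encoded on chromosome 12 and 27 on chromosome 17. Where a gene had several probe sets (KRT18, KRT39 and KRT40), the one with the highest mean over the 14 arrays stood for it. KRT17, KRT6A, KRT6B, KRT6C, KRT81, KRT82 and KRT86 were not analysed here.

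The study asked how expression differs between bone-metastatic and other prostate cancer lines. Total RNA of each line was hybridised to 2 arrays, replicates 1 and 2, taken at different passages of the culture. PC3-ML (Clone 1) and PC3-ML (Clone 3), called Clone 1 and Clone 3 here, each descend from a single PC3-ML cell and are labelled bone metastatic. PC3-ML is a bone-metastatic subline of PC3, and PC3-N(PDGFRα), also labelled bone metastatic, is the PC3-N subline with overexpressed PDGFRα, the alpha receptor for platelet-derived growth factor. PC3-N itself, DU-145 (PDGFRα), which overexpresses the same receptor, and DU-145 are labelled not bone metastatic. PC3 and DU-145 are established human prostate cancer lines, and all 7 lines grew in the same serum-containing medium.

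Keratins are the intermediate filament proteins of epithelial cells. Each filament is built from heterodimers of a type I keratin, encoded on chromosome 17 apart from KRT18, and a type II keratin, encoded on chromosome 12. Simple epithelia, among them the luminal cells of the prostate, are known for KRT8 and KRT18, often with KRT7, KRT19 or KRT20, while basal cells carry KRT5, KRT14 and KRT15, and the hair follicle has root sheath keratins and hard keratins of the hair shaft. KRT75 is a type II keratin of the companion layer of the hair follicle, and KRT20 a type I keratin best known from intestinal epithelium, urothelial umbrella cells and Merkel cells.

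The variation between lines sat in a few members. A keratin was called when the limma F test among the 7 lines gave an adjusted p under 0.05, with Benjamini-Hochberg adjustment over all 18372 genes. By this rule 6 of 48 keratins were called, where 38.0% of all genes were. In order of adjusted p they were KRT7, KRT8, KRT75, KRT19, KRT80 and KRT18, and 8 keratins had an unadjusted p under 0.05. The distance from the lowest to the highest line mean, on the log2 scale, had a median of 0.12 over the 48 keratins and of 0.31 over all genes. For the 5 simple epithelial keratins that median was 2.10, with KRT18 at 2.20 by the probe set used. Its other probe set had a distance of 0.63.

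**Figure D1:**
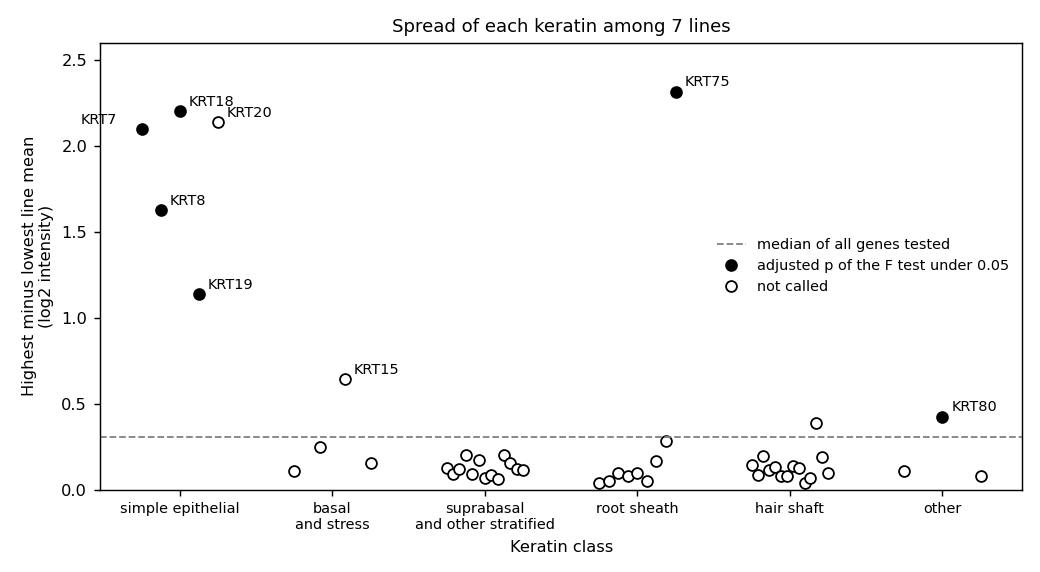
Each point is a keratin, placed by class, with the distance between its highest and lowest line mean in log2 intensity on the vertical axis. Filled points passed the limma F test at an adjusted p under 0.05, and the dashed line is the median of all genes, 0.31. The 5 simple epithelial keratins and KRT75 lie above 1.1, and the other 42 keratins lie below 0.7. KRT18 is placed by its probe set with the higher mean, and its other probe set had a distance of 0.63.

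By class, 4 of 5 simple epithelial keratins were called (KRT7, KRT8, KRT18 and KRT19), 1 of 9 root sheath keratins (KRT75) and 1 of 3 keratins of no class (KRT80). None of the 4 basal and stress, 13 suprabasal and other stratified or 14 hair shaft keratins was called by limma, with 1, 0 and 0 of them at an unadjusted p under 0.05. The intensities of most keratins lay at the low end of the scale, where RMA values are compressed. Of the 48, 36 (75.0%) were below the array's median gene on all 14 arrays, where 39.8% of all genes were. That was so for 13 of 14 hair shaft, 12 of 13 suprabasal and other stratified and 8 of 9 root sheath keratins, and for 0 of 5 simple epithelial ones. The arrays hold no detection calls, so these low values do not show whether a transcript was present.

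**Figure D2:**
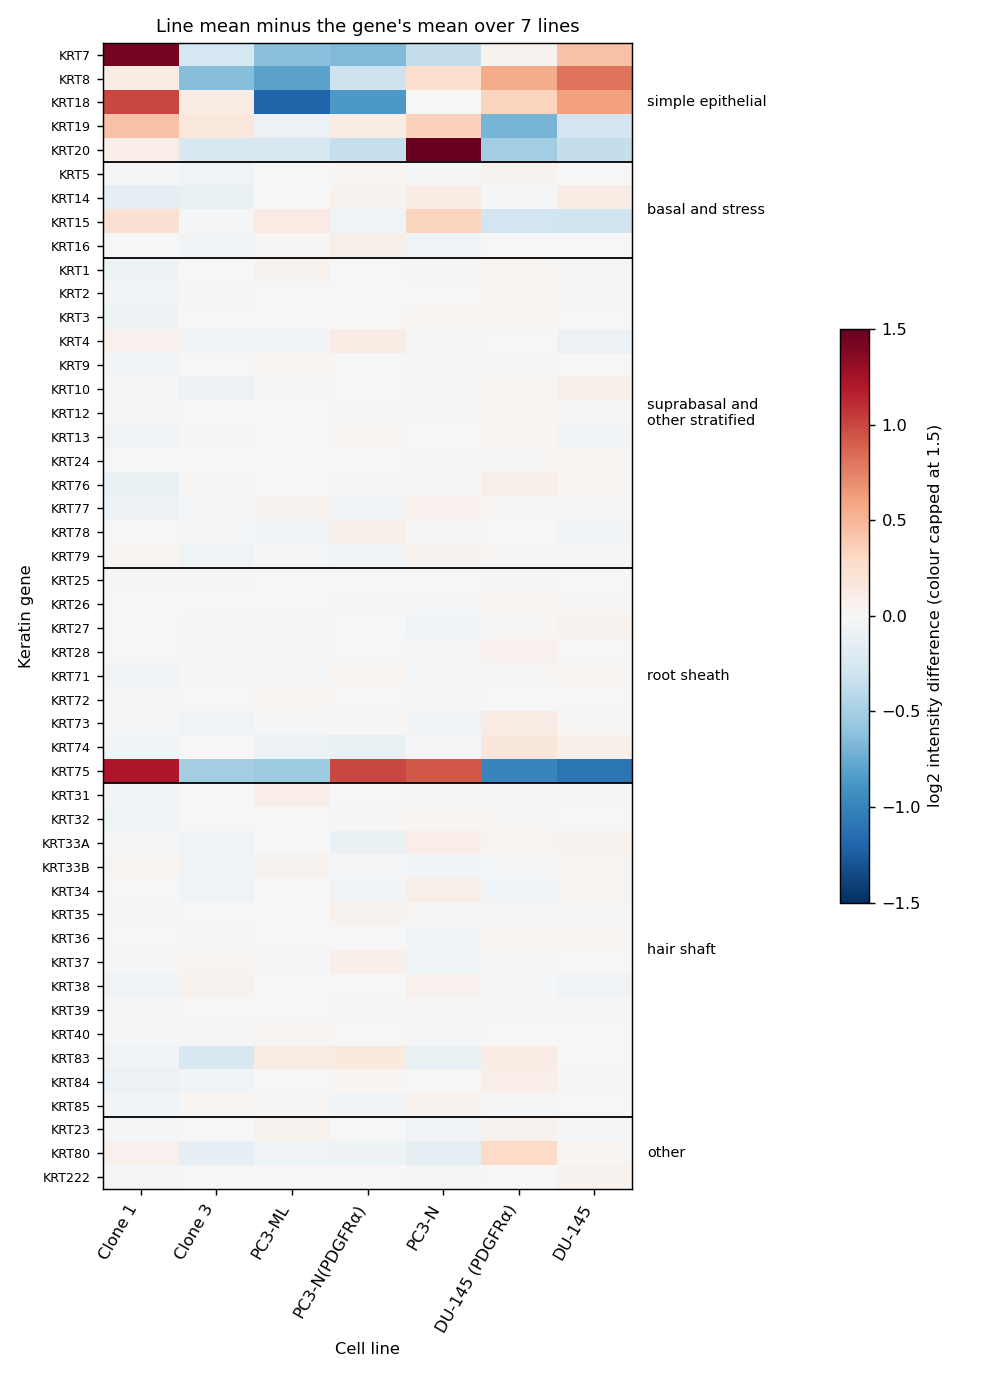
Rows are the 48 keratins by class, columns the 7 lines, and colour the line mean minus the mean over the 7 lines in log2 intensity, capped at 1.5. Colour is strong in the simple epithelial rows and in KRT75, and most of the remaining rows are near white.

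Promoters of KRT75 and KRT20 are printed because these members, of a hair follicle class and of an intestinal and urothelial type, were each high in at least 1 PC3 line, KRT75 in 3 and KRT20 in PC3-N alone, and low in both DU-145 lines. The windows run from 250 bases before to 50 bases after the start of the gene, 5′ to 3′ along the gene, from RefSeq (GRCh38.p14). KRT75 is at chr12:52434322-52434621 and KRT20 at chr17:40885193-40885492, both on the minus strand. Capitals mark the motif matches described after them.
KRT75: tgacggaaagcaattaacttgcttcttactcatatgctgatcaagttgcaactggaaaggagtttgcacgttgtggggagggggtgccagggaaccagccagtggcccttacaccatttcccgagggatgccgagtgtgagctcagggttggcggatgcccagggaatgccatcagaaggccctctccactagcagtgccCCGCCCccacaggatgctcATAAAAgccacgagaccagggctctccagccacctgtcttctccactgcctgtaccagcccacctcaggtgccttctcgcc
KRT20: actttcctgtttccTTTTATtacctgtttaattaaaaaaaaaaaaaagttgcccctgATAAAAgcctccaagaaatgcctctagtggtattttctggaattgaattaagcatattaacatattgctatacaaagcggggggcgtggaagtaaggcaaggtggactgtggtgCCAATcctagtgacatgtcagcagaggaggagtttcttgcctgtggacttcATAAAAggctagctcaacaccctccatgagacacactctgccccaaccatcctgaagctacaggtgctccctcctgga

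Both windows hold ATAAAA shortly upstream of the start, 31 bases before it in KRT75 and 28 bases before it in KRT20. KRT20 has ATAAAA again at 193 bases and its reverse complement at 236 bases upstream, and CCAAT at 79 bases. KRT75 has a GC box (GGGCGG, here on the other strand) at 50 bases. RefSeq promoters were given for 37 of the keratins, and 20 of these (54.1%) held TATAAA on either strand, against 11.5% of 35116 promoters. ATAAAA, chosen after the windows were read and overlapping TATAAA where the run is longer, stood in 22 keratin promoters (59.5%) and in 16.0% of all. CCAAT was found in 17 (45.9%) against 34.6% of all, GGGCGG in 6 (16.2%) against 45.0%, and TGANTCA, the AP-1 motif, in 0 against 7.71%. The window of KRT8, not printed here, held 0 matches to each of these motifs. The matches describe letters in these windows alone. KRT75 lies between KRT82 and KRT6B, and KRT20 between KRT12 and KRT23. KRT12 and KRT23 stayed below the median gene on every array, PC3-N included.

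KRT7, a type II keratin of simple ductal epithelia, was high in 1 line. It measured 461 and 580 (RMA intensity, replicates 1 and 2) for Clone 1, 151 and 168 for Clone 3, 120 and 128 for PC3-ML, 114 and 128 for PC3-N(PDGFRα), 142 and 157 for PC3-N, 242 and 163 for DU-145 (PDGFRα) and 267 and 251 for DU-145. Both Clone 1 arrays were above every other array. DU-145 came next, and its arrays did not overlap those of DU-145 (PDGFRα). The arrays of DU-145 (PDGFRα) and Clone 3, of Clone 3 and PC3-N, and of PC3-ML and PC3-N(PDGFRα) overlapped in turn. Each value is a mean over the culture, so fewer cells with a transcript and less of it per cell cannot be told apart.

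KRT8, the type II partner of KRT18 in simple epithelial filaments, had another order. Its intensities were 403 and 405 for Clone 1, 227 and 253 for Clone 3, 207 and 220 for PC3-ML, 287 and 318 for PC3-N(PDGFRα), 511 and 395 for PC3-N, 562 and 539 for DU-145 (PDGFRα) and 791 and 547 for DU-145. The DU-145 lines were highest and overlapped each other. PC3-N and Clone 1 overlapped next, and then PC3-N(PDGFRα), Clone 3 and PC3-ML followed without overlap.

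KRT18, the type I partner of KRT8, had 201 and 309 for Clone 1, 142 and 129 for Clone 3, 36.3 and 80.8 for PC3-ML, 87.9 and 53.6 for PC3-N(PDGFRα), 168 and 94.1 for PC3-N, 121 and 205 for DU-145 (PDGFRα) and 206 and 178 for DU-145. Clone 1, DU-145, DU-145 (PDGFRα), Clone 3 and PC3-N followed each other with overlapping arrays, and PC3-N(PDGFRα) and PC3-ML overlapped below them. The replicates of PC3-ML lay 2.23-fold apart. A second probe set of KRT18, called the dimmer one for its lower mean over the 14 arrays though not lower on each of them, had closer replicates in PC3-ML: 121 and 124 for Clone 1, 85.2 and 78.7 for Clone 3, 82.2 and 87.2 for PC3-ML, 81.9 and 102 for PC3-N(PDGFRα), 131 and 104 for PC3-N, 104 and 125 for DU-145 (PDGFRα) and 132 and 121 for DU-145. Clone 3 was above PC3-ML on the brighter probe set and overlapped it on the dimmer one. KRT8 and KRT18 are known to have many processed pseudogenes, and signal from those copies cannot be told apart here. Whether each KRT18 probe set lies at the gene itself or at such a copy was not checked, the brighter one included. The dimmer one (probe set 7955637) has a number close to that of KRT7 (7955613), encoded on the same chromosome. The brighter one (8154725) has a number near none of the other keratin probe sets, and its position was not tested.

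KRT19, a type I keratin without the usual tail domain, was higher in the PC3 lines. It measured 543 and 731 for Clone 1, 571 and 473 for Clone 3, 385 and 495 for PC3-ML, 521 and 481 for PC3-N(PDGFRα), 684 and 513 for PC3-N, 292 and 281 for DU-145 (PDGFRα) and 407 and 363 for DU-145. The 5 PC3 lines overlapped their neighbours in order, and 1 PC3-ML array lay within the range of DU-145. DU-145 (PDGFRα) was lowest, below every other array.

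KRT75 split the PC3 lines. Its intensities were 113 and 149 for Clone 1, 43.9 and 35.0 for Clone 3, 36.0 and 41.1 for PC3-ML, 121 and 103 for PC3-N(PDGFRα), 175 and 64.5 for PC3-N, 28.6 and 27.5 for DU-145 (PDGFRα) and 24.7 and 27.6 for DU-145. Clone 1, PC3-N(PDGFRα) and PC3-N overlapped one another at the top, and Clone 3 and PC3-ML overlapped below them. Both DU-145 lines were lower still. The 8 other root sheath keratins ranged over at most 0.28 log2 between lines.

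KRT20, named after its values were seen, was high in PC3-N. It had 233 and 51.5 there, against 37.8 and 38.6 for Clone 1, 32.7 and 27.9 for Clone 3, 27.8 and 32.7 for PC3-ML, 28.8 and 27.2 for PC3-N(PDGFRα), 24.5 and 25.3 for DU-145 (PDGFRα) and 28.1 and 27.7 for DU-145. Both PC3-N arrays exceeded all others, but they lay 4.53-fold apart, and the F test gave an adjusted p of 0.0549 (limma). Its range between line means was 2.14 log2, and 1.05 log2 without PC3-N replicate 1 and 3.23 log2 without replicate 2. Leaving out either array takes the spread of this pair out of the fit, so that PC3-N is 1 array assumed to vary like the other lines, and the calls this gives for KRT20 and KRT75 are no measure against the spread of PC3-N itself. KRT75 lay 2.71-fold apart in the same pair of arrays. Between the passages of PC3-N, 27 of 18372 genes (0.147%) were at least 2-fold apart, 2 of them keratins. For KRT20 and KRT75, the pair comparisons with PC3-N are given with each of its arrays left out as well.

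The remaining members had smaller ranges. KRT80, a type II keratin related to those of the hair follicle, measured 37.3 and 35.9 in DU-145 (PDGFRα) and between 25.3 and 31.9 on the other 12 arrays, a range of 0.42 log2 between line means (F test, adjusted p = 0.00634). KRT15, a type I keratin of basal cells, had an F test adjusted p of 0.0729 (limma) with a range of 0.64 log2 between line means, and its highest value, 50.1, in PC3-N replicate 1. It passed with a prior that follows intensity (adjusted p = 0.0131) and without PC3-ML replicate 1 (0.0440), PC3-N replicate 1 (0.0316) or PC3-N replicate 2 (0.0048), the last 2 with PC3-N as a single array. KRT5, the main basal type II keratin, stayed between 23.3 and 26.0 on all arrays, and its type I partner KRT14 between 35.4 and 46.7. In the hair shaft class, KRT83 had the smallest adjusted p (0.120) with a range of 0.39 log2.

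**Figure D3:**
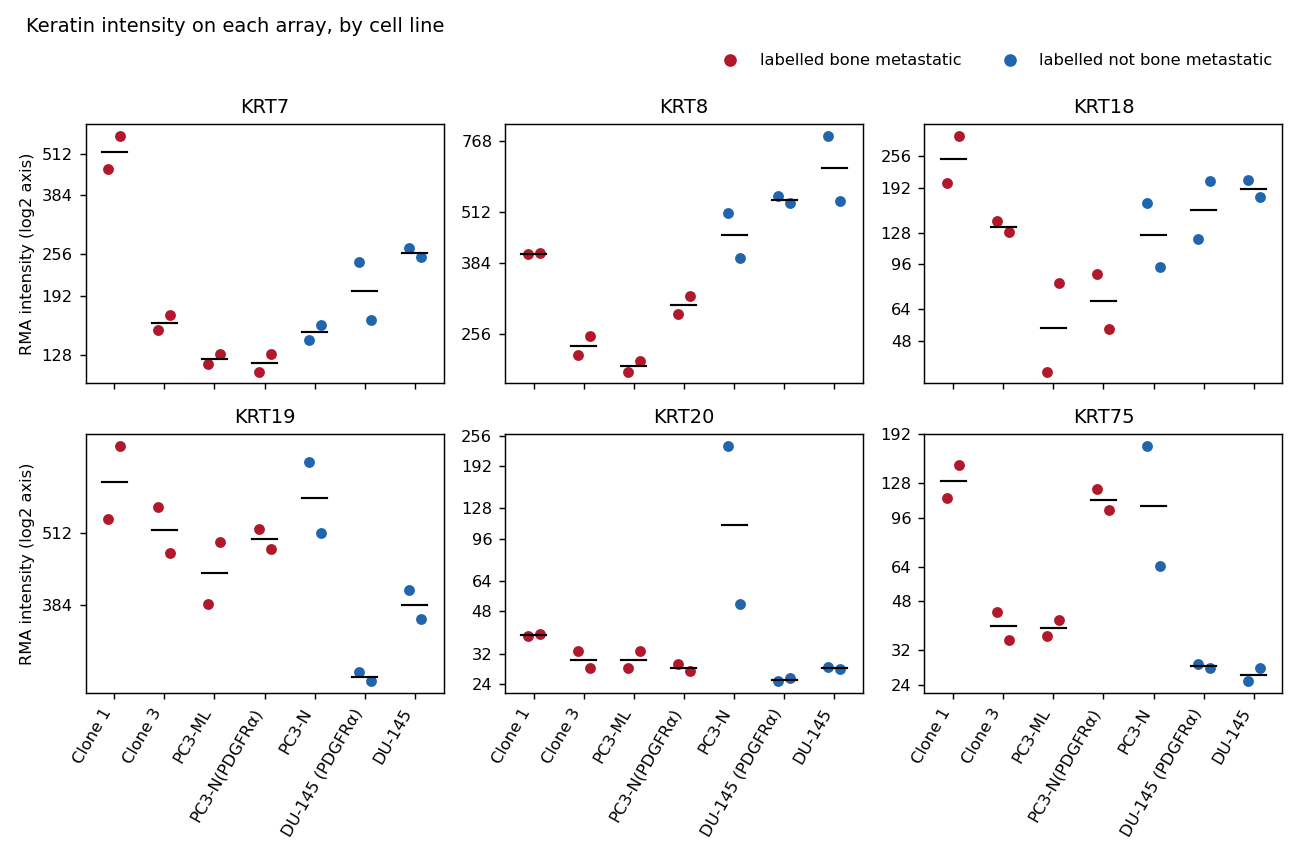
Each panel is a keratin, the horizontal axis the 7 lines, and the vertical axis RMA intensity on a log2 axis that differs between panels. Points are single arrays, coloured by the label of bone-metastatic potential, and bars are line means of the log2 values. Clone 1 stands above the rest in KRT7, PC3-N in KRT20, and both replicates of PC3-N lie far apart in KRT20 and KRT75.

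Across the 7 line means, KRT8 correlated with KRT18 at r = 0.69 on the brighter and 0.92 on the dimmer probe set, and KRT7 with KRT18 at 0.87 and 0.68. KRT8 and KRT75 had r = -0.17 over the 7 lines and 0.88 over the 5 PC3 lines. These values are descriptions over few points that share parent lines and arrays. In the pairs of lines, the interaction and the line groups described next, the median log2 change of the 48 keratins lay between -0.028 and 0.016, and that of all genes between -0.016 and 0.0034. For the 5 simple epithelial keratins the median was 0.92 in Clone 1 against PC3-ML, 0.25 in Clone 3 against PC3-ML, 0.75 in Clone 1 against Clone 3 and -1.08 in PC3-ML against PC3-N. It was -0.58 in PC3-N(PDGFRα) against PC3-N, -0.28 in DU-145 (PDGFRα) against DU-145 and -0.32 in the interaction of these 2. On line means it was -0.43 between bone-metastatic and other lines and -0.34 between PC3 and DU-145 lines. Several of these comparisons share the arrays of PC3-ML, PC3-N or Clone 1. The medians of the simple epithelial keratins take KRT18 from its brighter probe set. The dimmer one had smaller log2 changes, 0.53 in Clone 1 against PC3-ML and -0.46 in PC3-ML against PC3-N. Medians with the dimmer one were not computed, but they would be smaller in size in both comparisons.

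The clones were then set against PC3-ML, from which both descend. In Clone 1, KRT7, KRT8, KRT18 and KRT75 were higher than in PC3-ML, and these 4 of 48 keratins were the only ones called, where 13.8% of all genes were called and 9.01% were called higher. KRT7 averaged 520 ± 84 in Clone 1 and 124 ± 5.9 in PC3-ML (SD, n = 2 each), a 4.18-fold difference (log2 change 2.06, SE 0.17, limma adjusted p = 0.000103). KRT18 averaged 255 ± 76 in Clone 1 and 58.6 ± 31 in PC3-ML (log2 change 2.20, SE 0.43, adjusted p = 0.00768). Its dimmer probe set gave a smaller log2 change, 0.53 (adjusted p = 0.0262). KRT75 averaged 131 ± 25 in Clone 1 and 38.5 ± 3.6 in PC3-ML (log2 change 1.76, SE 0.36, adjusted p = 0.00954), and KRT8 404 ± 1.6 in Clone 1 and 214 ± 9.4 in PC3-ML (log2 change 0.92, SE 0.16, adjusted p = 0.00444). The arrays of Clone 1 and PC3-ML did not overlap for any of the 4. KRT19 had a log2 change of 0.53 that did not pass (adjusted p = 0.0884). The calls of KRT18 and KRT75 were lost without PC3-ML replicate 1 (adjusted p = 0.0679 and 0.0721) and without Clone 1 replicate 2 (0.0703 and 0.0800).

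In Clone 3 against PC3-ML, limma called 0 of 48 keratins, with 2 at an unadjusted p under 0.05, where 8.10% of all genes were called. KRT18 had a log2 change of 1.32 on the brighter probe set (adjusted p = 0.0987) and -0.05 on the dimmer one (0.924). On the brighter one it was called, with 1.90, when PC3-ML replicate 2 was left out (adjusted p = 0.0392). KRT7 had 0.37 (95% interval -0.01 to 0.74) and KRT8 0.17 (-0.19 to 0.53). KRT75 had 0.03, with an interval of -0.77 to 0.83.

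Clone 1 against Clone 3 tested the difference between the clones itself. Of the 48 keratins 3 were called, all higher in Clone 1, where 10.5% of all genes were called and 5.85% were higher. They were KRT75 (log2 change 1.73, SE 0.36, limma adjusted p = 0.0126), KRT7 (1.70, SE 0.17, adjusted p = 0.000281) and KRT8 (0.75, SE 0.16, adjusted p = 0.0151). KRT18 had 0.88 and was not called on the brighter probe set (adjusted p = 0.299). It was called on the dimmer one, with 0.58 (adjusted p = 0.0213). Without Clone 1 replicate 2 the adjusted p was 0.0982 for KRT75 and 0.0846 for KRT8. KRT75 also missed the threshold without Clone 3 replicate 2 (0.0877), and KRT8 without Clone 1 replicate 1 (0.0767) or Clone 3 replicate 1 (0.104). KRT7 passed with any array left out.

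EPCAM, a surface protein of simple epithelia that was named after its values were seen, was also higher in Clone 1. It averaged 1635 ± 159 in Clone 1, against 454 ± 28 in Clone 3 and 467 ± 24 in PC3-ML (SD, n = 2 each), with log2 changes by limma of 1.85 against Clone 3 (adjusted p = 3.1e-05) and 1.81 against PC3-ML (4.3e-05). The summed intensity of the 4 epithelial markers ran from 548 to 1863 over arrays of PC3 lines and from 1204 to 1820 over arrays of DU-145 lines. This sum includes EPCAM, so by itself it does not show whether the other epithelial markers differed. Of those, CDH1, the epithelial E-cadherin, averaged 30.3 ± 2.9 for Clone 1, with PC3-ML at 25.9 ± 1.3 and Clone 3 at 31.3 ± 1.4. CLDN4 averaged 68.9 ± 3.9 for Clone 1, with Clone 3 at 56.5 ± 2.8. Both were small beside EPCAM in Clone 1, and GRHL2 stayed below the median gene on all arrays. PECAM1, an endothelial marker, was also higher in Clone 1 than in PC3-ML (log2 change 1.03, adjusted p = 0.0176), while the 3 other endothelial markers stayed below the median gene. The part of these genes in the keratin differences was not tested.

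Keratin filaments end at desmosomes, so 18 genes of desmosomes and of the linker proteins that bind filaments were counted beside the keratins. By the F test 10 of the 18 were called, where 38.0% of all genes were. In Clone 1 against PC3-ML 2 of 18 were called (13.8% of all genes), both higher: DSP, the desmoplakin that anchors keratins, with a log2 change of 1.32, and DST, a linker of hemidesmosomes, with 0.92. In Clone 3 against PC3-ML 3 of 18 were called (8.10% of all genes), all higher, DSC3 (1.24) and DSC2 (1.06), which are desmosomal cadherins, and DSP (1.06). Between the clones 4 of 18 were called (10.5% of all genes). DST (1.00) and PKP4 (0.49), a plakophilin, were higher in Clone 1, while DSC3 (-1.49) and DSC2 (-0.72) were lower. With an array left out, calls were lost for DSC3 in Clone 3 against PC3-ML (adjusted p = 0.0725 without PC3-ML replicate 1 and 0.0587 without Clone 3 replicate 1) and, between the clones, for PKP4 (0.137 without Clone 1 replicate 2 and 0.125 without Clone 3 replicate 2) and DSC2 (0.0572 and 0.0785 without Clone 1 replicate 1 or 2, 0.0922 without Clone 3 replicate 1). The DSP intensity was 244 ± 19 in Clone 1 and 204 ± 18 in Clone 3, against 97.9 ± 4.9 in PC3-ML. DSP was thus higher in both clones than in PC3-ML, while KRT7, KRT8 and KRT75 passed the test in Clone 1 and not in Clone 3.

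PC3-ML against PC3-N compares the PC3 sublines of opposite label. KRT8 was the 1 keratin of 48 that passed, lower in PC3-ML, where 0.348% of all genes were called and 0.131% were called lower. It averaged 214 ± 9.4 in PC3-ML and 453 ± 82 in PC3-N (SD, n = 2 each), a 2.11-fold difference (log2 change -1.08, SE 0.16, limma adjusted p = 0.0308). The arrays did not overlap, but the call held in 8 of 19 other settings. The adjusted p was 0.256 without PC3-ML replicate 1, 0.0710 without PC3-ML replicate 2 and 0.200 without PC3-N replicate 1. It lay between 0.0515 and 0.0602 without single arrays of PC3-N(PDGFRα), DU-145 (PDGFRα) and the clones.

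Other keratins were lower in PC3-ML by value but did not pass. KRT75 had a log2 change of -1.47 (adjusted p = 0.146), KRT20 -1.86 (0.193), KRT18 -1.21 (0.333), KRT19 -0.44 (0.419) and KRT7 -0.27 (0.697). For KRT20 the value depended on which PC3-N passage was used, with -2.95 without replicate 2 and -0.77 without replicate 1. KRT75 likewise had -2.19 without replicate 2 and -0.75 without replicate 1. Both were called without replicate 2 and not without replicate 1, with the spread taken from the other lines alone. In all, 5 keratins had an unadjusted p under 0.05. None of the 18 desmosome and linker genes was called, with 1 at an unadjusted p under 0.05.

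Overexpression of PDGFRα was visible in its own gene, PDGFRA, at 834 ± 23 in PC3-N(PDGFRα) and 106 ± 4.3 in PC3-N, and at 111 ± 26 in DU-145 (PDGFRα) and 26.9 ± 1.9 in DU-145 (SD, n = 2 each). In PC3-N(PDGFRα) against PC3-N, limma called 0 of 48 keratins, with 4 at an unadjusted p under 0.05, where 2.20% of all genes were called. KRT8 averaged 302 ± 22 in PC3-N(PDGFRα) and 453 ± 82 in PC3-N (log2 change -0.58, 95% interval -0.94 to -0.21, adjusted p = 0.117), and it was called when either DU-145 array was left out of the shared fit (0.0375 each). KRT20 had -1.97 (adjusted p = 0.0837) and KRT18 -0.87 (0.433). KRT20 had log2 changes of -3.06 without PC3-N replicate 2 and -0.88 without replicate 1, both called, with PC3-N then a single array and the spread taken from the other lines. KRT75 had 0.07 with an interval of -0.73 to 0.87, and its sign turned with the PC3-N array left out, 0.79 without replicate 1 and -0.65 without replicate 2. DSP was the 1 of 18 desmosome and linker genes called, higher in PC3-N(PDGFRα) by 0.50 (adjusted p = 0.0338), a call lost without any 1 of the 4 arrays compared (adjusted p from 0.0938 to 0.216).

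In DU-145 (PDGFRα) against DU-145, limma again called 0 of 48 keratins, with 3 at an unadjusted p under 0.05, where 0.310% of all genes were called. KRT80 had a log2 change of 0.26 (adjusted p = 0.155), KRT19 -0.42 (0.363) and KRT7 -0.38 (0.377). KRT8 averaged 550 ± 16 in DU-145 (PDGFRα) and 669 ± 172 in DU-145, and its log2 change was -0.26 (95% interval -0.62 to 0.10). The difference between the effects of the receptor in PC3-N and in DU-145, tested as an interaction, was called for 0 of 48 keratins by limma, with KRT20 (-1.80, adjusted p = 0.332) the 1 keratin at an unadjusted p under 0.05 and 0.533% of all genes called. That KRT20 value was -0.71 without PC3-N replicate 1 (adjusted p = 0.119) and -2.89 without replicate 2, where it was called on the spread of the other lines. For KRT8 that difference was -0.32, with an interval of -0.83 to 0.19. Of the desmosome genes DSP passed, with a difference of 0.85 (adjusted p = 0.0344), a call that held in 5 of 19 other settings. It was lost with the replicate number as a block (0.0596) and without any 1 array other than DU-145 replicate 2 (0.0509 to 0.142).

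**Figure D4:**
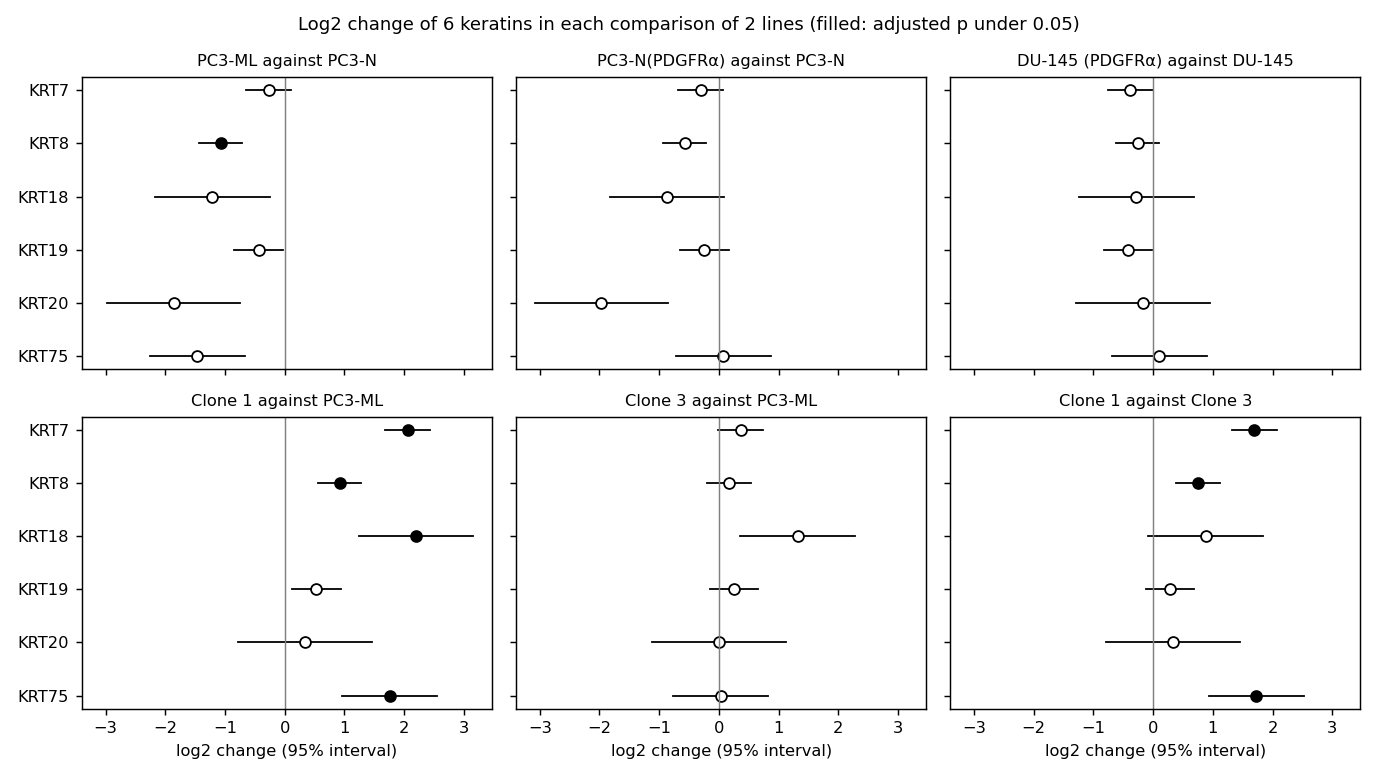
Each panel is a comparison of 2 lines, with the log2 change of 6 keratins and its 95% interval from limma on the horizontal axis. A positive value means higher in the line named first, and filled points passed at an adjusted p under 0.05. Filled points are KRT8 in PC3-ML against PC3-N, 4 keratins in Clone 1 against PC3-ML and 3 in Clone 1 against Clone 3.

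Bone-metastatic potential is a property of whole lines, and its test used 1 mean per line, 4 labelled bone metastatic and 3 not. Limma called 0 of 48 keratins and 0 of all genes (0% called), with 3 keratins at an unadjusted p under 0.05. KRT8 had the smallest p of the 48. Its line means, in log2 intensity, were 8.66, 7.91, 7.74 and 8.24 in Clone 1, Clone 3, PC3-ML and PC3-N(PDGFRα), against 8.81, 9.10 and 9.36 in PC3-N, DU-145 (PDGFRα) and DU-145. On line means all 4 bone-metastatic lines were thus below the 3 others, with a difference of -0.96 (95% interval -1.55 to -0.36, unadjusted p = 0.00726, adjusted p = 0.405). Single arrays overlapped, with Clone 1 at intensities of 403 and 405 and PC3-N replicate 2 at 395. The group not labelled bone metastatic holds both DU-145 lines, which have the highest KRT8, and background and label cannot be told apart in them. Within the PC3 lines, the 4 bone-metastatic lines against PC3-N gave -0.68 for KRT8 (adjusted p = 0.0202) and -1.80 for KRT20 (0.0372), measured against the spread between passages. That fit was not run with a PC3-N array left out, and for KRT20 those arrays lay 4.53-fold apart. PC3-N was the only PC3 line without the bone-metastatic label, so label and line cannot be told apart there. KRT7 had a difference of -0.07 and KRT75 of 0.68 over all lines, and both turned sign within PC3, to 0.33 and -0.64.

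PC3 lines were last compared with DU-145 lines on line means, 5 against 2. KRT19 was the 1 keratin of 48 called, higher in PC3 lines by 0.68 log2 (SE 0.17, limma adjusted p = 0.0386), where 17.6% of all genes were called and 9.60% higher. Its line means were 9.30, 9.02, 8.77, 8.97 and 9.21 in Clone 1, Clone 3, PC3-ML, PC3-N(PDGFRα) and PC3-N, against 8.16 and 8.59 in DU-145 (PDGFRα) and DU-145. All PC3 lines were above both DU-145 lines, though single arrays of the backgrounds overlapped. The call held in 16 of 27 other settings. With a line left out, it passed without PC3-ML alone, and the difference was 0.47 (adjusted p = 0.267) without DU-145 (PDGFRα) and 0.89 (0.0576) without DU-145. Without Clone 1, Clone 3, PC3-N(PDGFRα) or PC3-N the adjusted p was 0.0507, 0.0678, 0.0661 and 0.0764. It also missed without PC3-ML replicate 2 (0.0899), PC3-N replicate 2 (0.0549), DU-145 replicate 2 (0.0641), Clone 1 replicate 1 (0.0627) or Clone 3 replicate 1 (0.0517). KRT75 had 1.46 (adjusted p = 0.137), KRT15 0.41 (0.0531), KRT74, a root sheath keratin, -0.18 (0.0507), KRT8 -0.96 (0.0841) and KRT80 -0.23 (0.121). KRT7 was lower in PC3 lines by value, -0.34 (adjusted p = 0.743), with Clone 1 above and the other 4 PC3 lines below both DU-145 lines. Without Clone 1, KRT7 was called lower in PC3 lines, with -0.72 (adjusted p = 0.0330), and KRT15 was called in 9 of 26 other settings.

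Of the 18 desmosome and linker genes, 6 were called between the backgrounds (17.6% of all genes), 4 higher in PC3 lines and 2 lower. Of the 4 with the largest changes, DSC3 (2.41) and PKP1 (1.36), a plakophilin, were higher in PC3 lines, and DSG2 (-1.75), a desmosomal cadherin, and DST (-1.30) were lower. With DU-145 (PDGFRα) or DU-145 left out, DSC3 (adjusted p = 0.0669 and 0.0667) and DST (0.141 and 0.0961) missed the threshold. CDH1, the epithelial E-cadherin, was lower in PC3 lines as well (-1.56, adjusted p = 0.0263), and EPCAM did not pass (adjusted p = 0.257).

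Markers of tissue and of other cell types were read on the same arrays. EPCAM and CLDN4, epithelial genes, were above the median gene on all arrays, and GRHL2 was below it. The summed intensity of the 3 luminal prostate genes measured ran from 143 to 316 over arrays of PC3 lines and from 84.0 to 98.2 over arrays of DU-145 lines. Of these genes KLK3 and KLK2 were below the median on all arrays, and the third was not. The basal keratin KRT5 was below the median on all arrays. So were 4 of 6 fibroblast markers (COL3A1, DCN, LUM and PDGFRB), 3 of 4 leukocyte markers (PTPRC, CD3E and CD14) and 3 of 4 endothelial markers (CDH5, VWF and TEK), while COL1A1 was above it. Over arrays, the summed fibroblast markers lay between 171 and 188 in PC3 lines and between 172 and 184 in DU-145 lines. Replicates 1 and 2 of the same line had r between 0.989 and 0.996 over all genes tested. Arrays of different PC3 lines had r between 0.972 and 0.993, which overlaps that range. A PC3 and a DU-145 array had r between 0.926 and 0.948.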

How the data were processed

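The authors deposited intensities after RMA, per the submitters' processing notes, with a version not given in the sources used here. These intensity values, as deposited, were linear, running from 18.5 to 8654 with array medians of 29.9 to 31.6, and were converted to log2 with no pseudocount and no filter on low values. Of 28829 probe sets, 19291 had 1 gene symbol, 1735 several and 7803 none in the probe table. Identifiers of 19260 matched RefSeq, and 0 symbols changed. The brightest probe set stood for a gene, leaving 18372.

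limma 3.58.1 (R 4.3.3) was fitted with a mean per line to all 14 arrays (7 residual degrees of freedom), two-sided, with Benjamini-Hochberg adjustment over all genes. Its p values measure the spread between passages of a line, not between independent cultures. Comparisons of bone-metastatic potential and of background used the 7 line means (5 residual degrees of freedom), treating related lines as independent, which they are not. The fits were tested on simulated data. The number of arrays limits the precision.

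KRT7, KRT8, KRT18 and KRT75, every called keratin, up to 4 keratins per class by the F test, up to 4 called genes per comparison of the desmosome and other filament lists, and PDGFRA were named by rule. KRT20 and, in their comparisons, KRT74, EPCAM, PECAM1, CDH1 and VIM were named after their values were seen. KRT19 and KRT15 were named by rule for the F test. In comparisons that did not call them, they too were named after their values were seen. The members and lists were chosen with earlier results of these data known. Alternatives covered normalization, a filter on dim genes, probe set choice, the prior, a replicate block, the spread used, and each array or line left out. One was added after seeing the data, the other probe set of KRT18. Of keratin probe sets, 2 with several symbols were left out.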

Additional observations from a re-analysis of the deposited data

Results flagged for a closer look

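Line means were compared within the 5 PC3 lines and within the 4 bone-metastatic lines, 76 groups in all, and a line was marked when its gap to the nearest other line was large for the group's range (Dixon's test). Chance marks about 1 in 20 groups. All values are log2 intensities. In the PC3 lines, KRT7 stood apart in Clone 1, with 9.01 and the next line at 7.32. KRT20 stood apart in PC3-N with 6.78, next to 5.25, and its replicates lay 4.53-fold apart. DST, a linker of keratin filaments, was highest in Clone 1 with 8.35, next to 7.58. DSC3, a desmosomal cadherin, was highest in Clone 3 with 8.64, next to 7.55 in the PC3 lines and, in the bone-metastatic lines, next to 7.40. In the bone-metastatic lines KRT3, a corneal keratin, was lowest in Clone 1 at 4.55, next to 4.63, and KRT222, a keratin-like gene, was lowest there at 4.36, next to 4.37. The effect of PDGFRα overexpression on DSP, the desmoplakin that anchors keratins, differed between PC3-N and DU-145 in the interaction test, by 0.85 (limma adjusted p = 0.0344), a call that held in 5 of 19 other settings and was lost with a replicate block (0.0596). For KRT3 and KRT222 the distances are under 0.1 log2 and neither passed the F test.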

How the results depend on the processing

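The 6 keratins called by the F test were called in every other setting run for them, and so were KRT7 in both comparisons of Clone 1 and KRT8 in Clone 1 against PC3-ML, in all 19. A filter on dim genes and a prior that follows intensity each called 2 keratins in PC3-ML against PC3-N (1 as reported), 1 in PC3-N(PDGFRα) against PC3-N and 1 in Clone 3 against PC3-ML (0 as reported). In that order of comparisons, the filter called 103, 462 and 1672 of all genes it kept, and the prior 93, 429 and 1497 of 18372. Between bone-metastatic and other lines (0 as reported), the fit to 14 arrays, whose spread is that between passages, called 4 keratins and 5556 of 18372 genes. The PC3 lines alone gave 2 keratins and 678 genes. Between PC3 and DU-145 lines (1 as reported), quantile normalization and the filter each called 2, the prior 4 and the 14-array fit 6. Over all genes they called 3445, 2892, 3693 and 7133, the filter out of fewer genes. The cause of these differences was not tested.

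Deviations of same-numbered replicates had r over genes between -0.199 and 0.245 for the pairs of lines compared. These values do not show whether replicates of the same number shared a batch, and no crossed pairing was made. With the replicate number as a block the counts of called keratins in the 6 pairs of lines, the interaction and the F test were as reported, 1, 0, 0, 4, 0, 3, 0 and 6, and in the 14-array fits 4 between bone-metastatic and other lines and 7 between PC3 and DU-145 lines. Over all genes the block called 42 in PC3-ML against PC3-N (64 as reported, 103 with the filter) and 10 in DU-145 (PDGFRα) against DU-145 (57 as reported, 91 with the prior).

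With an array or line left out, called keratins numbered 0 to 3 in PC3-ML against PC3-N, 0 to 2 in PC3-N(PDGFRα) against PC3-N, 0 in DU-145 (PDGFRα) against DU-145, 0 to 1 in the interaction, 2 to 5 in Clone 1 against PC3-ML, 0 to 1 in Clone 3 against PC3-ML, 1 to 3 between the clones, 6 to 8 by the F test, 0 between bone-metastatic and other lines and 0 to 3 between backgrounds. All-gene counts ran from 12 to 170 in PC3-ML against PC3-N, from 9 to 418 in DU-145 (PDGFRα) against DU-145, from 0 to 2520 between bone-metastatic and other lines (2520 without PC3-N, which leaves PC3 lines against DU-145 lines, and 0 with any other array or line left out; 5556 in the 14-array fit, 5555 with the block, 678 within PC3) and from 1180 to 3631 between backgrounds (7133 in the 14-array fit, 7138 with the block).

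Values with a sign opposite to the reported one were not called. Some of the same genes were called in settings that kept the reported sign. Between bone-metastatic and other lines, KRT75 was called with 0.68 in the 14-array fit (limma adjusted p = 0.0228) and with the block (0.0263). KRT20 was called there with -1.80 within PC3 (0.0372). Left out arrays or lines gave log2 changes of -0.65 to 0.79 for KRT75 in PC3-N(PDGFRα) against PC3-N, -0.52 to 0.0064 for KRT8 and -0.66 to 0.10 for KRT18 in DU-145 (PDGFRα) against DU-145, -0.20 to 0.37 for KRT7 and -0.75 to 0.69 for KRT75 in the interaction, -0.14 to 0.19 for KRT75 in Clone 3 against PC3-ML, and -0.56 to 0.14 for KRT7 and -0.82 to 0.25 for KRT20 between bone-metastatic and other lines. Within PC3 the comparison of bone-metastatic potential gave 0.33 for KRT7 and -0.64 for KRT75. The dimmer probe set of KRT18 gave -0.048 in Clone 3 against PC3-ML. Low signal limits the 36 of 48 keratins that were below the median gene on all 14 arrays, and named keratins in part. The median gene lay between 35.7 and 37.3 over arrays. KRT80 ran from 25.3 to 37.3 on all arrays, and KRT20 from 24.5 to 38.6 outside PC3-N. KRT75 ran from 24.7 to 28.6 in the DU-145 lines.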

Other observations

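Intermediate filament genes other than keratins were read in the same fits, and 16 of 16 listed genes were measured. By the limma F test among the 7 lines 7 of them were called, where 38.0% of all genes were. Between PC3 and DU-145 lines 4 of 16 were called (17.6% of all genes). NEFL, the neurofilament light chain, averaged 509 ± 28 in Clone 1, 660 ± 44 in Clone 3, 450 ± 24 in PC3-ML, 521 ± 107 in PC3-N(PDGFRα) and 518 ± 104 in PC3-N, against 60.2 ± 2.5 in DU-145 (PDGFRα) and 47.9 ± 6.6 in DU-145 (RMA intensity, SD, n = 2 each). It was higher in PC3 lines by 3.29 log2 (limma adjusted p = 9.6e-05), and NES, the nestin of progenitor cells, was higher by 0.65 (adjusted p = 0.00042). NEFM, the medium chain of the same neurofilaments, went the other way, with -2.33 (adjusted p = 0.000158), at 31.2 or below on every PC3 array, against 178 ± 67 in DU-145 (PDGFRα) and 121 ± 2.9 in DU-145. INA, a further neuronal filament, was lower in PC3 lines, with -0.23, a call lost without the line DU-145 (adjusted p = 0.0634) or DU-145 (PDGFRα) replicate 1 (0.0568). VIM, the vimentin of mesenchymal cells, had line means between 278 and 361 and was not called. SYNC, a muscle filament gene, was higher in Clone 1 (0.66) and in Clone 3 (0.44) than in PC3-ML. The call in Clone 3 was lost without any 1 of the 4 arrays compared (adjusted p from 0.0746 to 0.151). No other listed filament gene was called in those comparisons.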
